A study of Mus musculus with 18 samples.

Results

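Genes for the nuclear-encoded parts of the mitochondrial respiratory chain and ATP synthase were followed across 18 mouse RNA-seq libraries. Members were the entries of the deposited expression table whose symbols start with Nduf, Sdha, Sdhb, Sdhc, Sdhd, Uqcr, Cox4, Cox5, Cox6, Cox7, Cox8 or Atp5, leaving out 1 pseudogene symbol, with a mean of at least 1 FPKM (fragments scaled by transcript length and by the mapped fragments of the library) over all libraries. Of 93 symbols so named, among 36655 in the table, 83 were members. The rule used the mean level over all libraries and no difference between conditions, but it was set with earlier results of these data known.

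Every library came from C57BL/6 mice described as all-iPS mice, whose genome carries Oct4, Sox2, Klf4 and c-Myc under doxycycline control, so the control cells carry the 4 factors too. Haematopoietic stem cells of the long-term (LT-HSC) and the short-term kind (ST-HSC), and progenitors of the myeloid lineage (MP), were taken uncultured (0), after 2 or 4 days of culture without doxycycline (2N, 4N), or after 2 or 4 days with it (2D, 4D). Fibroblasts (Fib) were taken at 0, 2D and 4D. Each condition has 1 library, so the cell types and days served as blocks in the tests. The p-values set a difference against its spread over these libraries, with each gene's variance drawn toward those of other genes. In comparisons with uncultured cells, days 2 and 4 of a cell type share 1 uncultured library and are not independent. A blood library came from 25 hand-picked cells whose cDNA was made with a polyT primer and amplified by 20 and then 9 cycles of PCR. Fibroblast RNA came from a Trizol extraction and a standard Illumina library preparation, so the library method differs between fibroblasts and blood cells along with the type. The age and number of the mice, and the promoter that drives the factors, are not given in the labels. The labels conflict in 1 place: the doxycycline field reads yes for all 6 N libraries, while the titles and the series' design give them as cultures without it, and the titles were used.

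The libraries were checked against their labels before the members were compared. Sox2, an induced factor, stood at 15.6 to 61.3 FPKM in the 6 D blood libraries and at 0 to 1.5 in the 6 N libraries. The other factors did not separate D from N in this way. Pou5f1, the gene of Oct4, was listed at 0 in all N libraries and at 0 to 2.34 FPKM in D. Klf4 was 0 to 22.6 FPKM in N and 0.704 to 11.2 in D, and stood at 214 and 240 in LT-HSC 0 and ST-HSC 0. Myc was 102 to 319 FPKM in N and 45.5 to 189 in D. The summed level of 5 general blood markers (Ptprc, Laptm5, Coro1a, Vav1, Cd53) was 1695 to 2071 FPKM in the uncultured blood libraries and 2400 to 4599 in N. Among D libraries it was 2693 and 2157 in ST-HSC 2D and 4D but 282 and 27.6 in LT-HSC and 220 and 6.07 in MP. The uncultured LT-HSC library stood partly against its label: its 5 myeloid progenitor markers (Mpo, Prtn3, Elane, Ctsg, Ms4a3) summed to 42113 FPKM, against 59060 in uncultured MP and 1629 in uncultured ST-HSC, while its stem cell markers summed to 839, the highest of the 3. Fibroblast markers summed to 544 to 10208 FPKM in fibroblasts and to at most 33.2 in blood cells. Between 10478 and 12425 genes stood at 1 FPKM or more in a library, and sequencing depth is unknown.

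The respiratory chain sits in the inner mitochondrial membrane and passes electrons from NADH, at complex I, and from succinate, at complex II, through complex III to oxygen at complex IV. Complexes I, III and IV pump protons across the membrane, and ATP synthase makes ATP as the protons flow back. Most subunits are nuclear genes translated in the cytosol, and a few are encoded by mitochondrial DNA (mtDNA). Quiescent haematopoietic stem cells are known to rely largely on glycolysis, myeloid differentiation goes with more mitochondrial respiration, and reprogramming to pluripotency is known for a shift toward glycolysis.

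The members comprised 7 conserved core subunits of complex I and 28 other complex I subunits, 4 complex I assembly factors, the 4 subunits of complex II and its assembly factor Sdhaf2, 8 complex III genes, 14 complex IV genes and 15 ATP synthase genes. Ndufa4, named for complex I, was placed with complex IV, where its protein is found. Cox4nb, named for lying beside a Cox4 gene, and Atp5sl, named for likeness to an ATP synthase gene, are not subunits of the complex in their name and were set apart. FPKM is scaled by transcript length, but not for the polyT priming and PCR of the blood libraries. The means also include fibroblasts, whose library method differs, so the order below is of values as listed. On the mean over all libraries, Atp5b and Atp5a1, the catalytic beta and the alpha subunit of ATP synthase, stood highest at 3415 and 2055 FPKM. Cox4i1, a regulatory subunit of complex IV, came next at 1762, then Atp5g3 of ATP synthase at 1508 and Ndufb8 of complex I at 1234. The highest of complex III were its core proteins, Uqcrc2 at 859 and Uqcrc1 at 753, and Cox5a, at 821, was second in complex IV. The highest complex I core subunit was Ndufv2 at 532 FPKM, and the complex II subunits spanned 273 (Sdhd) to 477 (Sdhc).

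The lowest members were Cox4i2 at 1.58 FPKM, Uqcrb at 3.59 and Atp5l at 4.40, just inside the threshold. Just outside it were Ndufa4l2 at 0.992, Cox7a1 at 0.571 and Ndufs5 at 0.515. Of the 10 symbols below the threshold, Atp5g2, Atp5l2, Cox8b and Cox8c were listed at 0 in every library. Ndufs5, Uqcrb and Atp5l encode standard subunits of their complexes, and many genes of this family have near-identical processed copies in the genome. How reads shared with such copies were counted is not given in the sources used here, so a low value of these genes cannot be read as low expression. Of the 83 members, 77 were above 0 in every library.

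RefSeq promoter windows (build GRCm38.p6, 250 bases before to 50 after a transcription start) were found for 68 members, 74 windows in all. They were searched on both strands for the letters of 3 factors known to act on respiratory genes. CGCATGCG, core letters for NRF1, occurred in 12.2% of member windows and in 1.87% of all 32851 windows. CCGGAAG, the core letters for GABP, occurred in 24.3% and 8.86%, and AAGATGGC, the YY1 letters, in 14.9% and 2.75%. At least 1 of the 3 was in 43.2% of member windows and 12.6% of all windows. The windows differ in base composition and some genes have several, so these shares are a description. The YY1 letters gave 11 matches in member windows at 10 distinct sites, since 2 overlapping windows of Atp5sl hold the same one. All lay on the gene's own strand, and 9 of the 11 began 23 to 39 bases after their window's start site, the Atp5sl site lying before the start site of its other window. The following stretches are shown because their genes recur in the results. Each is the 150 bases before the start of the gene, 5′ to 3′ on the gene's strand, with matches on either strand in capitals: Atp5j (chr16:84834977-84835126, minus strand) with letters of all 3, Ndufaf1 (chr2:119662835-119662984, minus) and Sdhd (chr9:50603850-50603999, minus) with GABP letters, and Ndufaf4 (chr4:24897933-24898082, plus) with NRF1 letters.
Atp5j: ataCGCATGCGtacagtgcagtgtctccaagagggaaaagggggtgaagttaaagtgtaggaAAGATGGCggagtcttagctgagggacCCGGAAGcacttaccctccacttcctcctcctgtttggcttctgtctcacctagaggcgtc
Ndufaf1: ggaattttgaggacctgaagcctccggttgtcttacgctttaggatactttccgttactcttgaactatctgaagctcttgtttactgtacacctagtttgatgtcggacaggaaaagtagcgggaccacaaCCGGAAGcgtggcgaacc
Sdhd: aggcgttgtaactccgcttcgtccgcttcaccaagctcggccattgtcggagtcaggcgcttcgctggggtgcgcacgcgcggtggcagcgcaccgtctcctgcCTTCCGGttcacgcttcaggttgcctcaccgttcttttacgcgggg
Ndufaf4: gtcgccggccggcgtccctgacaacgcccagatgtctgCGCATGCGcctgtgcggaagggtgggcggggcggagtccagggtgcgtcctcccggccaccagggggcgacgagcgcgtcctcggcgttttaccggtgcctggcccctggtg

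The YY1 letters just after the start are shown for Ndufc1 of complex I (chr3:51408915-51408944, minus strand) and Atp5j2 of ATP synthase (chr5:145191500-145191529, minus strand), where the match begins 23 and 24 bases after the start.
Ndufc1: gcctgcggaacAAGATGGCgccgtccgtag
Atp5j2: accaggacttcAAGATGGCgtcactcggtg

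The members' summed FPKM, as a share of all FPKM in the library, was 2.54% in LT-HSC 0, 2.59% in ST-HSC 0 and 3.84% in MP 0. In culture without doxycycline the share was 3.55%, 4.09% and 4.05% in LT-HSC, ST-HSC and MP at day 2 and 4.27%, 4.70% and 4.74% at day 4. With doxycycline it was 4.18%, 4.34% and 5.45% at day 2 and 5.01%, 5.15% and 6.70% at day 4. The stem cell libraries were thus lowest uncultured and did not overlap with their cultured counterparts, and MP 4D was the highest of all. In fibroblasts the share was 2.36% uncultured, 2.95% at 2D and 3.25% at 4D. In the plot of shares by library the same order can be followed beside the share of mtDNA-encoded transcripts. In these bulk libraries, fewer cells of a type and less RNA per cell cannot be told apart.

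**Figure D1:**
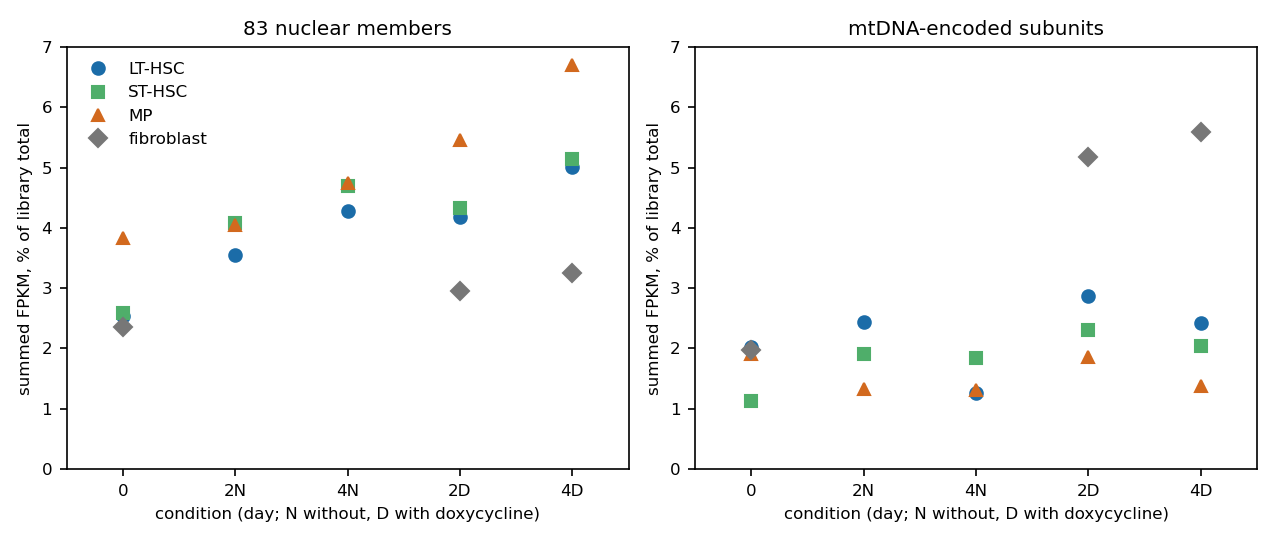
Summed FPKM of the 83 nuclear members (left) and of the mtDNA-encoded subunits (right) as a percentage of all FPKM in a library, by condition; each symbol is 1 library, coloured by cell type. The members' share runs from 2.54% in LT-HSC 0 to 6.70% in MP 4D among blood cells, while the mtDNA-encoded share of blood cells stays between 1.14% and 2.87%. Of the 13 mtDNA-encoded genes 5 are listed at 0 in every library, so that share is of values as listed.

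The comparison of N with uncultured cells sets culture without doxycycline, by the titles, against no culture. Because marker sums differed between these groups too, as given below, the comparison does not isolate culture. In it 22 of 83 members rose and 1, Cox6b2, fell (limma, adjusted p under 0.05), in a fit that called 8.89% of all 12060 genes tested, 5.8% higher and 3.08% lower. The median member differed by 0.78 on the log2(FPKM + 1) scale, against 0.17 for all genes. ATP synthase contributed 6 rises among 15 genes and complex I 8 among 35 subunits, none of them a core subunit. Complex II contributed 2 of 4 (Sdhb, Sdhd), complex III 2 of 8 (Uqcrq, Uqcrfs1), complex IV 1 of 14 (Cox5a) and the complex I assembly factors 2 of 4. Cox4nb, set apart above, was the remaining one.

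The largest rises were in complex I genes. Ndufaf2, an assembly factor of complex I, was listed at 0 in LT-HSC 0 and stood at 14.1 FPKM in ST-HSC 0 and 54.2 in MP 0. It was 83.7, 90.9 and 58.3 FPKM at 2N and 136, 142 and 100.2 at 4N in LT-HSC, ST-HSC and MP. All 6 cultured values were above the uncultured ones, though MP 2N only just, and the rise was 3.39 ± 0.885 (SE; adjusted p = 0.0441). Ndufaf1, another complex I assembly factor, was listed at 0, 13.4 and 25.3 FPKM uncultured and stood at 34.8 to 81.6 in the N libraries, a rise of 2.85 ± 0.729 (adjusted p = 0.0377). Both sizes rest partly on the library listed at 0 and on the 1 added before the log: without LT-HSC the differences were 1.71 and 1.44 and neither was called. Ndufa5, a subunit of the matrix arm of complex I, was 4.23 and 4.71 FPKM in LT-HSC 0 and ST-HSC 0 and 44.4 in MP 0, and 37.0 to 85.7 in N. The stem cell values were far below every cultured value while MP 0 lay among them, and the rise was 2.38 ± 0.502 (adjusted p = 0.0206). Ndufab1, the mitochondrial acyl carrier protein, was 10.6, 0.621 and 8.08 FPKM uncultured and 19.9 to 74.1 in N, with no overlap, a rise of 2.61 ± 0.661 (adjusted p = 0.0366). Ndufc2 of the membrane arm was 229, 35.3 and 147 FPKM uncultured and 242 to 409 in N, a rise of 1.63 ± 0.445 (adjusted p = 0.0457). Both rest partly on ST-HSC: without it the difference was 1.57 for Ndufab1 and 0.80 for Ndufc2, and neither was called. The loss of a call was not particular to these genes. Without LT-HSC 0 members were called higher, and without ST-HSC 0 members were called.

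Among ATP synthase genes, Atp5f1, which encodes subunit b of the peripheral stalk, had the smallest adjusted p of all members. It stood at 97, 60.4 and 132 FPKM in LT-HSC, ST-HSC and MP uncultured, at 310, 289 and 295 at 2N and at 240, 291 and 248 at 4N. Every cultured library was above every uncultured one, and the rise was 1.59 ± 0.273 (adjusted p = 0.0110). Atp5g1 and Atp5g3 encode the same c subunit of the membrane ring from 2 genes. Atp5g1 was 3.48 to 9.23 FPKM uncultured and 10.4 to 31.9 in N, and Atp5g3, far higher, was 421 to 1176 uncultured and 1222 to 1972 in N. Their rises were 1.71 ± 0.422 (adjusted p = 0.0337) and 1.21 ± 0.262 (adjusted p = 0.0224). Atp5j, the coupling factor whose upstream bases are printed above, rose by 1.01, from 392 to 642 FPKM uncultured to 751 to 1416 in N. Cox4nb, no subunit, was 8.20 to 18.4 FPKM uncultured and 25.9 to 49.0 in N, a rise of 1.75 ± 0.362 (adjusted p = 0.0200).

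Complex II, the only complex with no mtDNA-encoded subunit, oxidises succinate with the Sdha and Sdhb subunits and is anchored by Sdhc and Sdhd. Sdhb, the iron-sulfur subunit, was 122, 178 and 273 FPKM in LT-HSC, ST-HSC and MP uncultured, 290, 442 and 326 at 2N, and 327, 427 and 563 at 4N, all cultured values being above all uncultured ones. It rose by 1.09 ± 0.257 (adjusted p = 0.0288), and Sdhd, at 143 to 205 FPKM uncultured and 227 to 396 in N, rose by 0.89 ± 0.230 (adjusted p = 0.0396). Sdha, the flavoprotein, overlapped between the groups (290 to 544 uncultured, 383 to 508 in N), as did Sdhc (256 to 615 and 487 to 745). In complex IV, Cox5a was 415, 232 and 721 FPKM uncultured and 907 to 1399 in N, a rise of 1.37 ± 0.257 (adjusted p = 0.0146). Cox6b2, a form of subunit VIb best known from testis, did the opposite. It was 29.3, 68.6 and 89.2 FPKM in LT-HSC, ST-HSC and MP uncultured, at most 13.7 in N and listed at 0 in MP 2N and MP 4N. It fell by 3.93 on the log2(FPKM + 1) scale, a size that depends on the added 1 (adjusted p = 0.0157).

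Counted by ranges, 24 of 83 members (28.9%) had every N library above every uncultured one, against 7.92% of all genes. In the other direction 2 members did, Cox6b2 and Uqcrh, against 4.1%. Uqcrh, the hinge protein of complex III, was 240, 235 and 214 FPKM uncultured and 55.2 to 172 in N, and did not pass the test.

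By cell type, the members' median differences were larger in the stem cell libraries than in MP, with 1 uncultured library of each type. Whether they differed was tested on the uncultured and N libraries alone, after the values were seen: 0 of 83 members passed (limma, adjusted p under 0.05), 18 had an unadjusted p under 0.05, and 0 of all genes passed. Set against their own uncultured library, 69 and 74 of 83 members were higher in LT-HSC 2N and 4N, with median differences of 0.81 and 1.0. In ST-HSC 76 of 82 and 74 of 83 were higher, with medians of 0.95 and 1.26. In MP 41 of 82 were higher at 2N and 58 of 82 at 4N, with medians of 0.02 and 0.28. The medians of all genes lay between 0.02 and 0.26 in these 6 contrasts. Of all genes, 57.0% and 55.7% were higher in LT-HSC 2N and 4N, 54.1% and 54.3% in ST-HSC, and 53.2% and 51.0% in MP. Leaving out the LT-HSC libraries, whose uncultured library carries myeloid transcripts, the members' median was 0.71, and 0 members were called higher and 1 lower while 1.23% of all genes were called. Without ST-HSC the median was 0.53 with 0 members called (0.435% of all genes), and without MP it was 0.98 with 23 called (9.88% of all genes). Under median-ratio scaling the median of all genes moved from 0.17 to 0.009 and that of the members to 0.59. It called 13 members higher and 1 lower, and 7.62% of all genes. Marker sums moved too. Myeloid progenitor markers went from 42113 FPKM uncultured to 125 and 181 in LT-HSC 2N and 4N, from 1629 to 5649 and 9655 in ST-HSC, and from 59060 to 34774 and 30617 in MP. The 5 mature neutrophil and macrophage markers went from 8824 to 2368 and 1.89 in LT-HSC, from 34.4 to 17.6 and 35.2 in ST-HSC, and from 5475 to 1915 and 252 in MP. The 6 stem cell markers went from 839 to 183 and 127 in LT-HSC, from 611 to 73.4 and 17.1 in ST-HSC, and from 16.52 to 11.4 and 10.1 in MP. The part of these shifts in the members' differences was not tested.

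**Figure D2:**
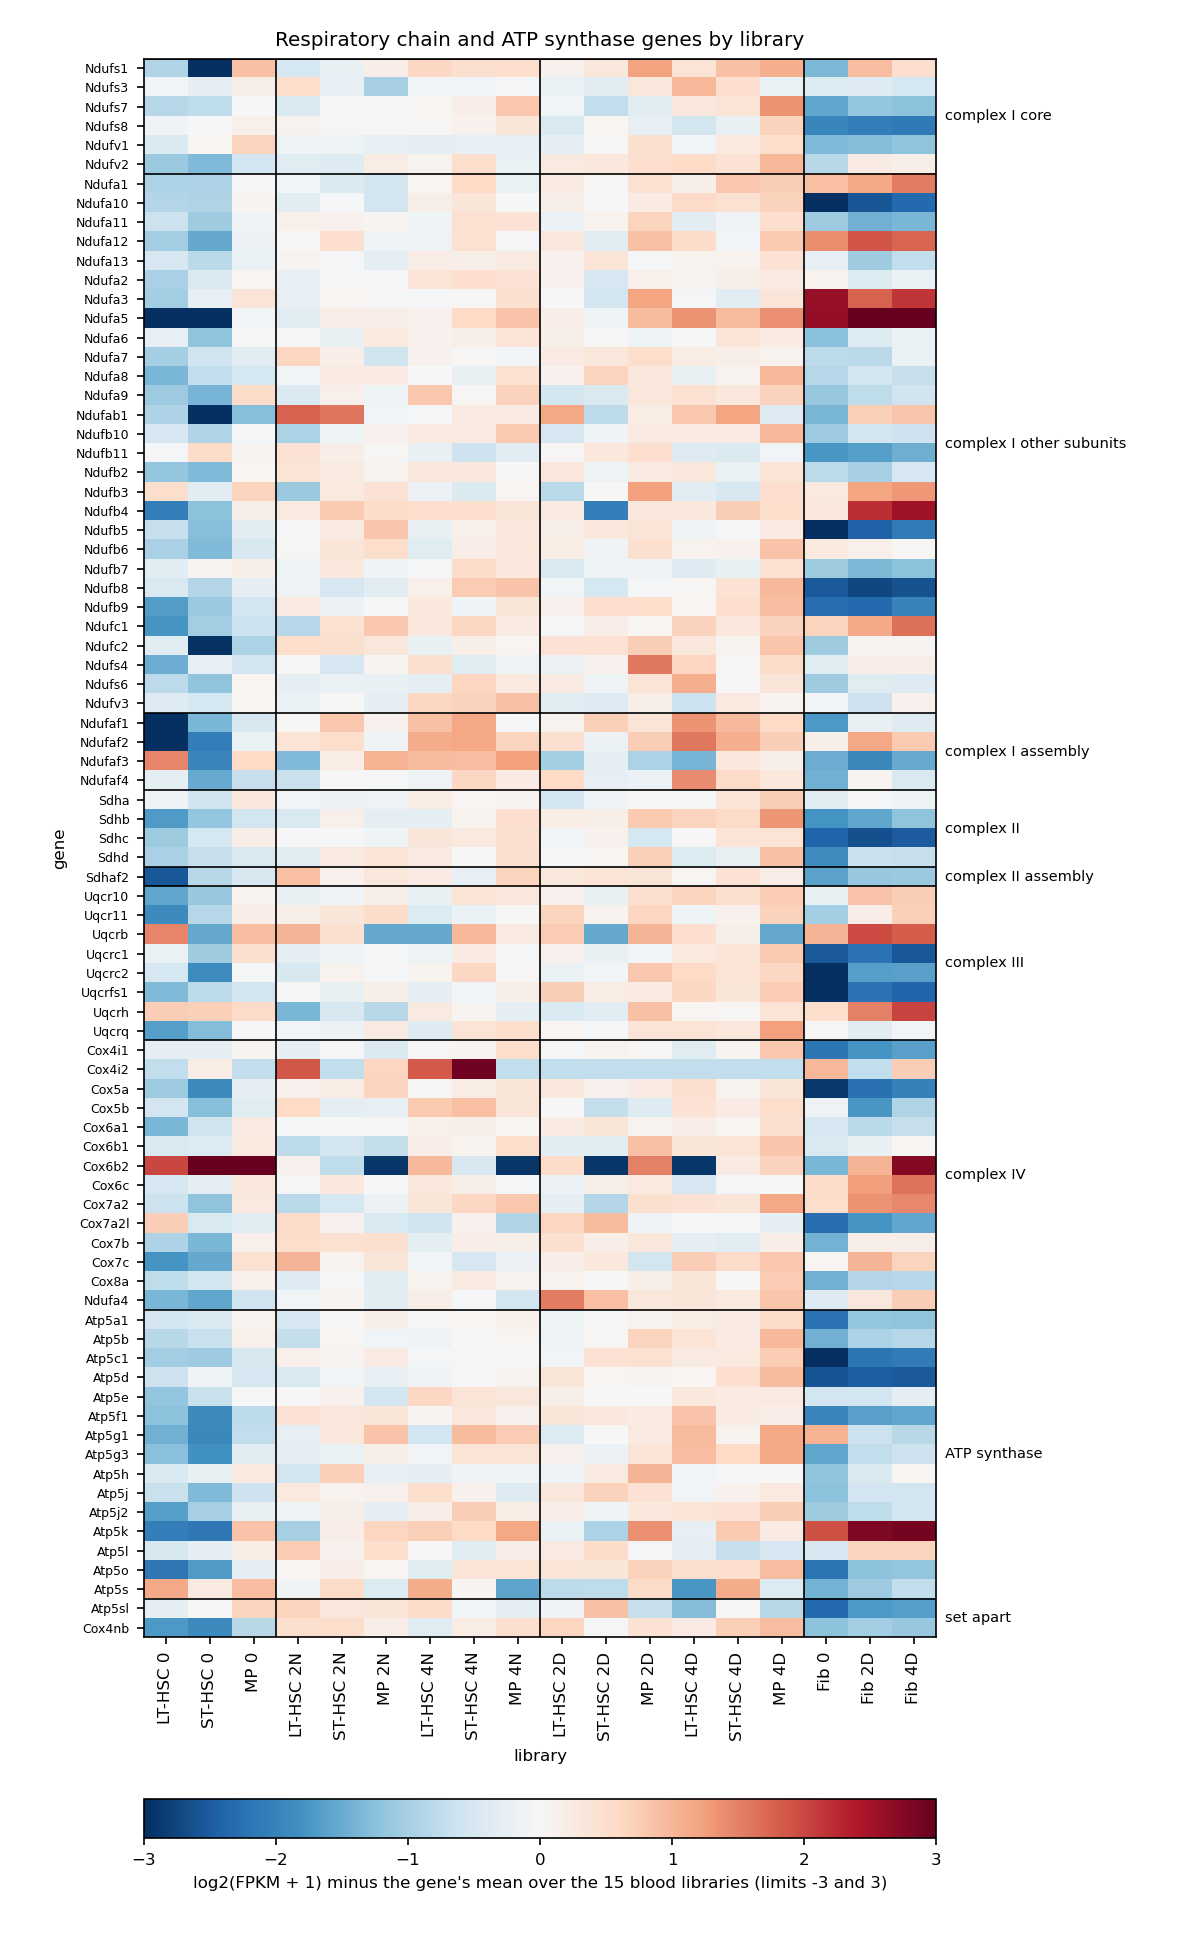
Each row is a member, grouped by complex, with 1 member not drawn, and each column a library; colour is log2(FPKM + 1) minus the gene's mean over the 15 blood libraries, with limits at -3 and 3. LT-HSC 0 and ST-HSC 0 are mostly blue, MP 0 is paler, and MP 4D is mostly red; fibroblast columns mix rows far above the blood mean (Ndufa5, Ndufa3) and far below it (Atp5d, Uqcrc1).

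Uncultured MP were above uncultured stem cells for most members. MP 0 exceeded both stem cell libraries in 71 of 82 members (86.6%), against 36.9% of all genes, and was below both in 1, Uqcrh, against 29% of all genes. With 1 library of each type, this has no replicate check. LT-HSC 0, a stem cell library here, also carries myeloid progenitor markers, at 42113 FPKM against 59060 in MP 0. The members' median difference between MP and the mean of the stem cells was 0.82 uncultured, -0.02 at 2N, 0.10 at 4N, 0.29 at 2D and 0.33 at 4D. The complex medians of the uncultured difference ran from 0.64 for the complex I core to 1.13 for complex III. Ndufs1, the largest core subunit of complex I, stood at 27.3 and 0.509 FPKM in LT-HSC 0 and ST-HSC 0 and at 96.7 in MP 0. Atp5k, a small ATP synthase subunit, stood at 2.63, 2.36 and 26.2, and Sdhc at 256, 368 and 615.

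Over all 5 conditions, 0 of 83 members passed the test of MP against stem cells (0.297% of all genes passed). An unadjusted p under 0.05 was reached by 28 members, and 69 were higher in MP, while 50.8% of all genes were. The smallest p-values were those of Ndufb10 of complex I (0.63 ± 0.155, adjusted p = 0.108), Uqcrq of complex III (0.73 ± 0.183, adjusted p = 0.111) and Cox7a2 of complex IV (0.77 ± 0.197, adjusted p = 0.113). A test chosen after these values were seen asked whether the MP difference was larger uncultured than in the 4 cultured conditions, N and D together. This is the contrast tested by cell type above with the D libraries added. The same uncultured libraries enter both, so the results are not independent. The test rests on the 1 uncultured MP library. It called 0 members (0.305% of all genes), 23 had an unadjusted p under 0.05, and the median was 0.62 against 0.18 for all genes. Without LT-HSC it called 1 member, Ndufs1. Ndufa5 came nearest, at 2.58 ± 0.506 (adjusted p = 0.0529), followed by Atp5o at 1.38 and Cox7c at 2.28 (adjusted p = 0.185 and 0.186). In the limma test of ST-HSC against LT-HSC over the same conditions 0 of 83 members passed, 0 had an unadjusted p under 0.05, and 0% of all genes passed. The smallest p-values there belonged to Ndufb7 (0.40 ± 0.176), Ndufaf1 (1.03 ± 0.563) and Atp5h (0.43 ± 0.251), with adjusted p of 0.758, 0.813 and 0.815.

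With doxycycline, the members again stood above the uncultured libraries. In D against uncultured cells 35 of 82 members tested rose and Cox6b2 fell, among 15.3% of all genes called, 9.16% higher and 6.17% lower, and the median was 0.86 against 0.23 for all genes. Cox4i2 was too low over these libraries to be tested. Because this comparison uses the same uncultured libraries as the comparison of N, the overlap of their calls is no independent evidence. The 35 held all 22 called in N and others, among them Atp5b, Atp5j2, Ndufa1, Ndufa10, Ndufa12, Ndufa4, Ndufaf4, Ndufv2, Sdhaf2, Uqcr10, Uqcr11 and Uqcrc2. Side by side, the differences in N and in D were 1.09 and 1.76 for Sdhb, 1.5 and 1.93 for Atp5o of the peripheral stalk, 1.59 and 1.67 for Atp5f1, 2.38 and 2.88 for Ndufa5 and -3.93 and -3.41 for Cox6b2. They were 3.39 and 3.50 for Ndufaf2, 2.85 and 3.04 for Ndufaf1, 2.61 and 2.35 for Ndufab1, 1.75 and 1.99 for Cox4nb and 1.63 and 1.88 for Ndufc2. In D too, leaving out LT-HSC brought Ndufaf2 to 1.73 and Ndufaf1 to 1.60, leaving out ST-HSC brought Ndufab1 to 1.55 and Ndufc2 to 1.21, and none of these 4 was then called. Ndufa4 differed by 1.89 in D (adjusted p = 0.0077). All D libraries were above all uncultured ones in 32 of 82 members (39.0%), against 10.2% of all genes, and below in Cox6b2 alone, against 6.46%. Without LT-HSC 4 members were called in D against uncultured cells, without ST-HSC 8 and without MP 22, all higher. Myeloid progenitor markers summed to 1.83 to 142 FPKM in D and mature neutrophil and macrophage markers to at most 16.3, both below the uncultured sums in LT-HSC, ST-HSC and MP, and the part of this in the members' differences was not tested.

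Doxycycline was tested directly by pairing each D library with the N library of the same cell type and day. In this comparison 3 of 83 members rose, a share not far from the 4.53% of all genes called higher. Of the members 0 fell, against 4.44% of all genes called lower, and 8.97% of all genes were called in either direction. An unadjusted p under 0.05 was reached by 14 members. On average 58 members were higher in D, while 51.4% of all genes were, and the median was 0.18 against 0.02 for all genes.

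Sdhb stood at 463, 450 and 684 FPKM in LT-HSC, ST-HSC and MP at 2D, against 290, 442 and 326 at 2N, and at 635, 595 and 993 at 4D, against 327, 427 and 563 at 4N. It was higher in D in 6 of 6 pairs, narrowly in ST-HSC at day 2, and rose by 0.67 ± 0.171 (adjusted p = 0.0390). Ndufa4 was 664, 427 and 290 FPKM at 2D against 217, 240 and 180 at 2N, and 294, 282 and 409 at 4D against 261, 220 and 155 at 4N. All 6 pairs were higher in D, the 6 D values lay above the 6 N values, and the rise was 0.84 ± 0.218 (adjusted p = 0.0414). Atp5b was 3305, 3635 and 5682 FPKM at 2D against 2153, 3693 and 3375, and 4710, 4238 and 6981 at 4D against 3230, 3519 and 3695. It was higher in D in all pairs but ST-HSC day 2 and rose by 0.51 ± 0.138 (adjusted p = 0.0473). All 3 calls were lost when the LT-HSC or the MP pair of day 2, or the ST-HSC or the MP pair of day 4, was left out, with the differences then at 0.43 to 0.94. They were also lost when genes were tested without a minimum level.

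**Figure D3:**
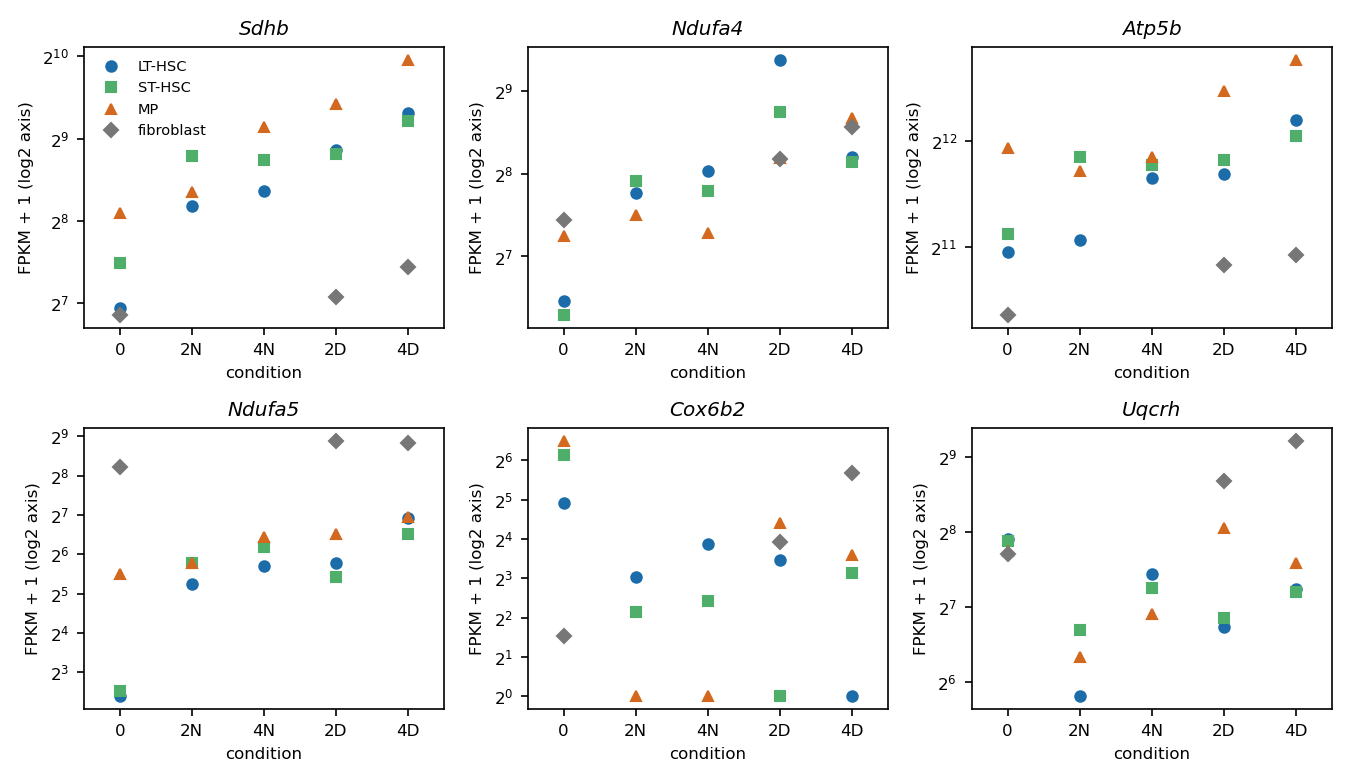
FPKM + 1 on a log2 axis for 6 members by condition; each symbol is 1 library. Sdhb, Ndufa4 and Atp5b are highest with doxycycline among blood cells, Ndufa5 is far below the cultured values in LT-HSC 0 and ST-HSC 0 but not in MP 0, Cox6b2 is highest uncultured among blood cells, and Uqcrh is lowest at 2N among blood cells.

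D was above N in all 6 pairs for 9 of 83 members, a share not far from the 7.21% of all genes. They were Uqcrfs1, Sdhb, Ndufa4, Ndufa10, Ndufa1, Cox6b1, Atp5o, Atp5g3 and Atp5d. Uqcrfs1, the Rieske iron-sulfur protein of complex III, had the next smallest p after the 3 called, with a difference of 0.53 ± 0.151 (adjusted p = 0.0573). Its values were 952, 658 and 678 FPKM at 2D against 565, 484 and 642 at 2N, and 873, 730 and 958 at 4D against 461, 540 and 646 at 4N. By pair, the members' median D minus N difference was 0.20 and 0.11 in LT-HSC at days 2 and 4, -0.03 and -0.007 in ST-HSC, and 0.31 and 0.41 in MP. The summed blood markers were far lower in D than in N in LT-HSC and MP. In ST-HSC they were 2693 at 2D against 2613 at 2N and 2157 at 4D against 3690 at 4N, so the pairs with positive medians were those with the largest loss of blood markers, and the part of this loss in the members' differences was not tested. The change of the D minus N difference from day 2 to day 4 was called in 0 members, and in 0% of all genes. Cox7c, a small complex IV subunit, was the only member there with an unadjusted p under 0.05 (1.47 ± 0.541, adjusted p = 0.989), followed by Ndufv3 (-0.79 ± 0.399) and Ndufab1 (1.29 ± 0.773), both with the same adjusted p.

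**Figure D4:**
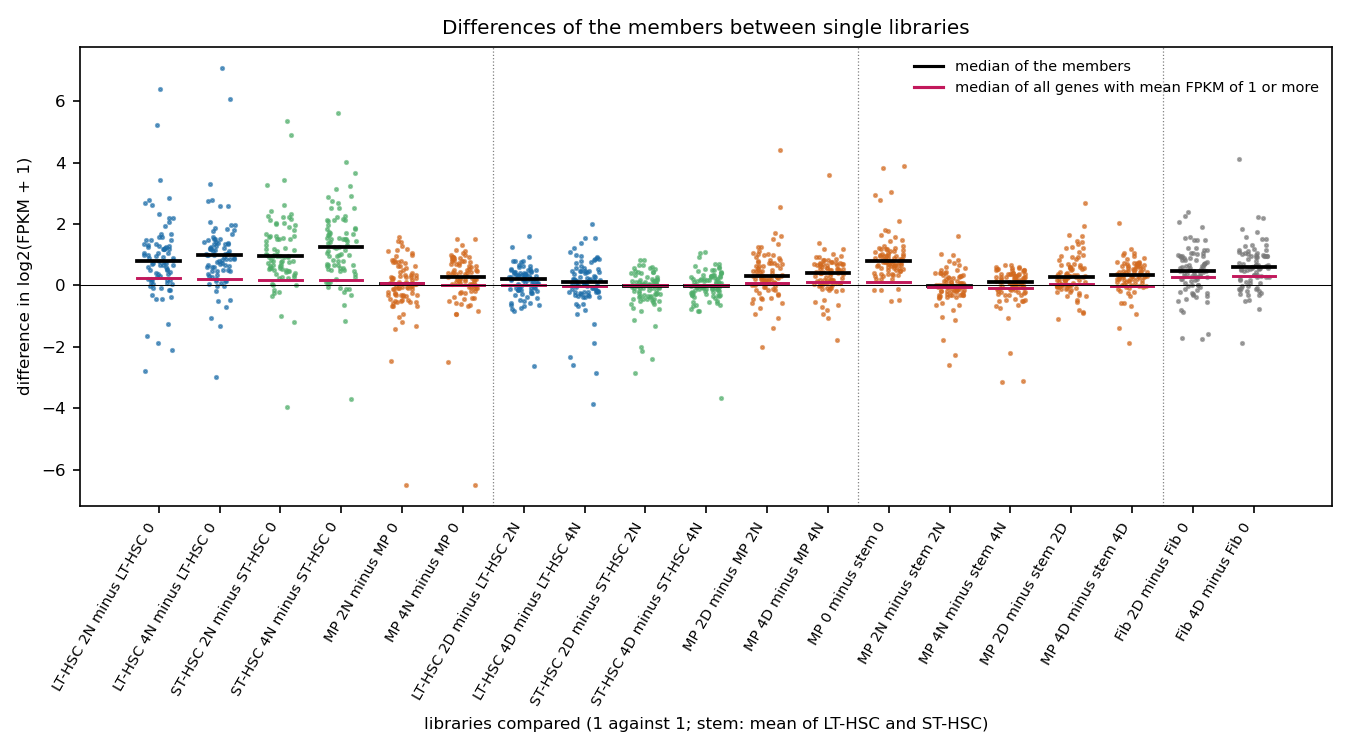
Difference in log2(FPKM + 1) of each member (points) between single libraries, for N minus uncultured, D minus N, MP minus the mean of the stem cells, and fibroblast D minus uncultured; black bars are the members' medians and magenta bars those of all genes. The members' medians are 0.81 to 1.26 for the 4 stem cell contrasts of N with uncultured cells, and 0.02 and 0.28 for MP.

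In the fibroblast libraries, 64 of 83 members were higher at 2D than uncultured and 66 at 4D, while 60.4% and 62.4% of all genes were. The members' medians were 0.48 and 0.60 against 0.27 and 0.29 for all genes. The 6 fibroblast markers summed to 10208 FPKM uncultured, 544 at 2D and 1636 at 4D, and the part of this fall in the members' differences was not tested. A 2-fold or larger increase on the log2(FPKM + 1) scale was seen in 17 and 21 members (22.8% and 21.3% of all genes) and a decrease of that size in 3 and 1 (16% and 12.9%). Both D libraries lay above the uncultured library in 62 of 83 members, against 55.5% of all genes, and both below in 15, against 31.6%. Atp5b was 1313, 1830 and 1953 FPKM at 0, 2D and 4D, Atp5a1 484, 1008 and 984, and Sdhb 115, 134 and 172. Atp5g1 went the other way, at 34.4, 9.90 and 8.60. There is 1 fibroblast library a condition and no N library, so doxycycline and time in culture cannot be told apart.

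Whether the change from uncultured to D differed between fibroblasts and blood cells was tested, and 0 of 82 members passed (0.944% of all genes did). The median was -0.34 against 0.05 for all genes, and 12 members had an unadjusted p under 0.05. Atp5g1 differed by -3.51 ± 0.788 (adjusted p = 0.0811), Ndufb9 of complex I by -1.43 ± 0.384 (adjusted p = 0.137) and Cox6b2 by 6.67 ± 1.8 (adjusted p = 0.139). In level, 23 members were lower in all 3 fibroblast libraries than in all 15 blood libraries, against 7.81% of all genes, and 6 were higher (Ndufa5, Ndufa3, Ndufa12, Ndufa1, Cox6c and Atp5k), against 12.6%. Ndufa5 was 295 to 472 FPKM in fibroblasts and at most 122 in blood, while Ndufb8 was 201 to 232 in fibroblasts and 723 to 2647 in blood. These level differences cannot be told apart from the difference in library method.

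Several complex IV and ATP synthase subunits have alternative forms made from separate genes, often tied to a tissue or to oxygen supply. A value of 0 in this table does not show that a gene is silent, since standard subunit genes such as mt-Co2 are also listed at 0, so the values below are levels as listed. Cox4i2, the form of subunit IV known from lung and low oxygen, reached at most 11.6 FPKM in blood cells (ST-HSC 4N), beside 1453 to 3425 FPKM of Cox4i1, and was listed at 0 in 10 of 15 blood libraries including all 6 with doxycycline. The muscle forms Cox6a2 and Cox7a1 reached at most 3.6 and 3.38 FPKM in blood, and Cox7b2 at most 1.53. Ndufa4l2, known as a gene of low oxygen, was at most 1.70 FPKM in blood and 14.0 in Fib 4D, beside 379 FPKM of Ndufa4 there. Cox6b2 was higher: of Cox6b1 and Cox6b2 together it made up as much as 23.1%, and its fall in culture is given above. In fibroblasts it stood at 1.89, 14.2 and 49.8 FPKM at 0, 2D and 4D. Cox7a2l, which is known to join complexes III and IV into supercomplexes, made up 21.8% to 76.8% of the sum of Cox7a2l and Cox7a2 in blood and 9.22% to 11% in fibroblasts. Of Atp5g1 and Atp5g3 together, Atp5g1 made up 0.729% to 1.74% in blood.

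Genes around the chain, from lists outside the naming rule, were counted in the same fits. In N against uncultured cells 6 of 39 electron carriers and assembly factors rose (Atpif1, Coq7, Cox15, Cox19, Cyc1 and Tmem70), and 0 fell, against 5.8% of all genes called higher and 3.08% lower. Cyc1, cytochrome c1 of complex III, was 191, 346 and 601 FPKM in LT-HSC, ST-HSC and MP uncultured and 405 to 1056 in N, a rise of 1.13 ± 0.249 (adjusted p = 0.0236). Of 20 genes of the citric acid cycle and pyruvate use, 3 rose (Fh1, Mdh2 and Brp44, a mitochondrial pyruvate carrier subunit) and 0 fell. Of 16 regulators of mitochondrial biogenesis 1 rose and 1 fell. The riser was Tfam, which packages mtDNA and takes part in its transcription, at 55.5 to 91.6 FPKM uncultured and 123 to 323 in N (1.60 ± 0.353, adjusted p = 0.0236). The other was Gabpa, the DNA-binding subunit of GABP, at 23.7 to 50.7 FPKM uncultured and 5.87 to 23.8 in N (-1.54 ± 0.429, adjusted p = 0.0489). In D against uncultured cells 6 of 39 carriers and assembly factors, 5 of 20 citric acid cycle and pyruvate genes and 2 of 16 regulators rose, and 0 fell, against 9.16% of all genes called higher and 6.17% lower. With doxycycline against without, 2 of 39 carriers and assembly factors, 1 of 20 citric acid cycle and pyruvate genes and 1 of 16 regulators were called, against 8.97% of all genes. Pdha1, the E1 alpha subunit of pyruvate dehydrogenase, rose by 1.13 ± 0.209 (adjusted p = 0.0107), Nubpl, a complex I assembly factor, rose too, Atpif1, the inhibitor of ATP synthase, fell by 0.82 (SE 0.157, adjusted p = 0.0125), and Gabpb1, a partner of Gabpa, fell by 1.22 (SE 0.331, adjusted p = 0.0486).

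Transcripts of the 13 mtDNA-encoded subunits, which are not members, were counted in the same fits. Of these genes 7 could be tested and 5 were listed at 0 in every library. In N against uncultured cells 0 rose and 1 fell, mt-Nd5, a complex I subunit, at 373 to 668 FPKM uncultured and 87.5 to 250 in N (fell by 1.70 on the log2 scale, SE 0.382, adjusted p = 0.0246). In D against uncultured cells mt-Cytb and mt-Nd1 rose and mt-Nd5 fell. In D against N, mt-Cytb, the cytochrome b of complex III, rose by 0.71 ± 0.138 (adjusted p = 0.0140), and mt-Nd2 by 0.69 ± 0.184 (adjusted p = 0.0461), 2 of 7 against 4.53% of all genes called higher. The summed share of the mtDNA-encoded genes in library FPKM was 1.14% to 2.87% in blood cells, and 1.37% in MP 4D where the nuclear members were highest. In fibroblasts it was 1.98%, 5.18% and 5.59% at 0, 2D and 4D. The 5 genes listed at 0 add nothing to this sum, and mt-Co3 stood at 2.09 FPKM or less, so it may understate these transcripts. Blood libraries were primed on polyA and fibroblast mRNA was purified first, so the share of mtDNA transcripts depends on the method as well.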

How the data were processed

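The deposited table holds FPKM values, which the authors made with Cufflinks and TopHat (build mm9), per the submitters' processing notes. Versions and annotation were not given in the sources used here, and that the values are FPKM was judged from their size. No coordinates are given for the members because the reference is on another build. The 36818 entries were summed to 36655 symbols. Some values of 0 may be failed estimates, and depth is unknown.

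Values were log2(FPKM + 1), and a difference on that scale understates the change of low genes. The test was limma 3.58.1 (R 4.3.3), with its trend and robust options, two-sided, on genes averaging 1 FPKM or more in the libraries compared, with Benjamini-Hochberg adjustment over all genes and a threshold of 0.05. Blocks were the 6 pairs of cell type and day, the cell type, or the condition. Genes named were, in each fit, all members past the threshold up to 15, otherwise the 8 largest rises and falls; in a fit with none, the 3 smallest p-values; and the 2 highest members of each complex, complex II and the alternative forms. Others were named after their values were seen. Members and lists were chosen with earlier results of these data known. The tests were checked on simulated data, with 50 genes shifted by each amount. At a shift of 1 on the log2 scale, 8% were called in D against N. In N and in D against uncultured cells 2% and 6% were. At a shift of 2 these shares were 52%, 48% and 42%. The day change then found 10%, and the MP difference by culture and the fibroblast comparison 0%. A fit with 0 calls therefore does not show that its groups are alike. Alternatives changed the pseudocount, filter, scaling, variance options, block and libraries. Drawing used matplotlib 3.10.9. The values of 1 member are not reported here, though it stays in the counts.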

Additional observations from a re-analysis of the deposited data

How the results depend on the processing

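No gene named by the rule of its fit turned its direction under any alternative run. The direction of the other calls was not followed. The members' median of the day 2 to day 4 change, -0.0095, was 0.038 without LT-HSC, 0.010 without ST-HSC and 0.011 without MP, and so has no set sign. In D against N, the 3 calls became 0 without a minimum level, 0 without the trend and robust options and 1 with no replicate block (Ndufa4), that is, without pairing by cell type and day. In N against uncultured cells, the 23 calls became 14 after quantile normalization (12 higher, 2 lower), 14 with median-ratio scaling and 3 without the trend and robust options. Of all genes 7.71%, 7.62% and 3.48% were called in these runs, against 8.89%. In D against uncultured cells the 36 became 17 without the trend and robust options. Leaving out 1 pair or cell type gave 0 to 2 calls in D against N, 0 to 23 in N against uncultured cells (without LT-HSC the 22 higher and 1 lower became 0 and 1), and 4 to 22 in D against uncultured cells. It gave 0 to 1 in the MP difference by culture, where 1 cell type or culture condition was left out, and 0 to 0 in MP against stem cells, ST-HSC against LT-HSC, the day change and the fibroblast comparison. The MP difference by culture had 1 call at a pseudocount of 0.1 and 1 without a minimum level (Ndufa5, adjusted p = 0.0333 and 0.0229), and its median of 0.62 was 0.43 with median-ratio scaling and 0.84 on the uncultured and N libraries only; leaving out libraries there and this last choice were added after the data were seen. The fibroblast comparison had 1 call at a pseudocount of 5 (Cox6b2), 2 without a minimum level and 1 after quantile normalization (Atp5g1). Of the single genes named, 51 results lost their call when 1 pair, cell type or condition was left out and 87 kept their side of the threshold. Under the other settings 36 lost and 5 gained a call, while 245 kept their side. Fewer libraries leave fewer degrees of freedom. The cause of the other changes was not tested.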

Other observations

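Atp5j lies head to head with Gabpa in the mouse genome, as is known for this gene pair. The 2 genes went opposite ways in N against uncultured cells: Atp5j rose by 1.01 ± 0.236 (limma, adjusted p = 0.0285) and Gabpa fell by 1.54 (SE 0.429, adjusted p = 0.0489). In fibroblasts both were higher at 2D and 4D than uncultured, Atp5j at 421, 659 and 663 FPKM and Gabpa at 50.5, 102 and 65.7. Whether the counting used strand is not given in the sources used here. Both genes were picked after their values were seen.

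Of the 18 members called higher in N against uncultured cells with a RefSeq window, 7 (38.9%) held at least 1 of the 3 sets of letters, and of the other 50 members with a window 24 (48%) did. Among all windows with the YY1 letters 30.6% had them on the gene's strand after the start.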
